A study of Mus musculus with 58 samples.

Results

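The genes described here are Fcgr1, Fcgr3 and Fcgr4, which encode the activating Fc gamma receptors of the mouse, Fcgr2b, which encodes the inhibitory receptor, and Fcer1g, which encodes the common gamma chain through which the activating receptors signal. They were chosen by symbol, and 5 of 5 were found among the 15171 genes of the count table. Cortex and hippocampus from the injury site of 58 mice were sequenced as 1 RNA sample per mouse, 14 days after controlled cortical impact (TBI, a mechanical model of traumatic brain injury) or sham surgery performed at 3 months of age. All mice had a C57BL/6 background and carried human APOE in place of the mouse gene by targeted replacement, as APOE3 (E3) or APOE4 (E4), the isoform linked to a higher risk of Alzheimer's disease. They had either both copies of Abca1 (Abca1+/+), the transporter that loads lipid onto APOE, or 1 copy (Abca1+/-), from crosses of the APOE mice with Abca1+/- mice. The groups were E3/Abca1+/+ sham (n = 8) and TBI (n = 8), E3/Abca1+/- sham (n = 7) and TBI (n = 6), E4/Abca1+/+ sham (n = 7) and TBI (n = 7), and E4/Abca1+/- sham (n = 7) and TBI (n = 8), with 30 males and 28 females in all.

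Fc gamma receptors bind the constant part of immunoglobulin G and so let a cell respond to antibody-coated particles. In the brain they are known mainly from microglia and from macrophages that enter after damage, where the activating receptors drive phagocytosis and cytokine release through the ITAM of the gamma chain, a motif whose tyrosines are phosphorylated and recruit the kinase Syk. Fcgr2b carries an ITIM in its own tail instead, which recruits the phosphatase SHIP1 and damps the signal, so the balance of activating to inhibitory receptors sets how strongly a cell reacts to immune complexes.

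Fcgr2b, Fcgr3, Fcgr4 and Fcer1g lie near each other on chromosome 1, and Fcgr1 lies on chromosome 3. In the annotation of GRCm38, Fcgr2b is at chr1:170958617-170976547 (minus strand), Fcgr4 at chr1:171018920-171029761 (plus strand), Fcgr3 at chr1:171051174-171064935 (minus strand), Fcer1g at chr1:171229572-171234365 (minus strand) and Fcgr1 at chr3:96282909-96293969 (minus strand). The coding sequences of the opposing signalling motifs are shown, with the tyrosine codons in capitals. The gamma chain motif covers codons 65 to 79 of 86 in Fcer1g (spliced from chr1:171229889-171230072), and the inhibitory motif covers codons 317 to 322 of 340 in Fcgr2b (chr1:170961071-170961088).
Fcer1g ITAM: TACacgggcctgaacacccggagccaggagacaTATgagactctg
Fcgr2b ITIM: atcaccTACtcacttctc
The letter pattern of an ITAM was found in Fcer1g and in none of the receptors, whereas that of an ITIM also matched 3 other places in Fcgr1, 1 in Fcgr4 and 1 in Fcer1g, so a match alone marks no motif. Outside these motifs the receptors resemble each other. The coding sequences of Fcgr2b and Fcgr3 were identical at 684 of 782 aligned bases (87.5%), against 67.8% to 69.8% for the other pairs of receptors. Of all 50-base stretches of the Fcgr3 transcript, 12.79% also occurred in another gene, namely Fcgr2b, and 11.36% of those of Fcgr2b occurred in another gene, Fcgr3 among them. At 100 bases these shares were 3.53% and 3.54%, and they were 0 for Fcgr1, Fcgr4 and Fcer1g at each length. Counts of Fcgr2b and Fcgr3 are therefore uncertain to that extent, since the sources used here do not state how reads that match several genes were counted.

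The promoters were searched on both strands for the core of the PU.1 site, GAGGAA, because PU.1 is a textbook regulator of myeloid Fc receptor genes. GAGGAA was found in a promoter of 3 of 5 genes, namely Fcgr1, Fcgr3 and Fcgr4, against 25.9% of all genes in the RefSeq table. The matches are shown in capitals within 30 bases of the gene's own strand (RefSeq, GRCm38.p6), where TTCCTC is GAGGAA read on the opposite strand.
Fcgr4, 22 bases before the start, chr1:171018892-171018921 (plus): aaggctatttacTTCCTCtcttctagtcaa
Fcgr3, 15 bases before 1 of its RefSeq starts, chr1:171059395-171059424 (minus): agagagtccatttccTTCCTCtttttgtag
Fcgr1, 55 bases before the start, chr3:96294007-96294036 (minus): atggcaacttccTTCCTCttttctaatctt
The Fcgr3 match lies 6 bases before another RefSeq start of the gene, and both of these starts are inside the longer GENCODE gene. These are matches of letters in a window and not measured binding sites.

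Total counts per mouse ran from 4421308 to 37877346, with a median of 8350020.5 in Abca1+/+ and 18871445.5 in Abca1+/- mice, so the Abca1 comparisons also compare shallower with deeper libraries. Abca1 itself was at 48.5 ± 6.92 CPM (counts scaled to the size of each library, SD) in E3/Abca1+/+ and 35.3 ± 3.84 in E3/Abca1+/- sham mice, and at 45.6 ± 6.42 and 35.8 ± 4.86 CPM in the corresponding E4 sham mice. In TBI mice it was at 170 ± 54.7 CPM in E3/Abca1+/+ and 104 ± 21.1 in E3/Abca1+/- mice. Injured E4/Abca1+/+ and E4/Abca1+/- mice were at 156 ± 74.6 and 138 ± 44.5 CPM, a difference within the spread. All 8 microglia and macrophage markers (among them Aif1, Csf1r, Cx3cr1 and Cd68) and all 4 neuronal markers were measured in this tissue. No listed marker of natural killer cells (6 genes), B cells (5) or mast cells (5) is among the genes analysed. E4/Abca1+/- sham replicate 2 stood apart from the other 28 sham mice, being the highest of them for each of the 5 genes, and the sham genotype differences that passed the test and both interactions that use this mouse are also given without it. The tissue was bulk, so fewer cells of a type and less RNA per cell cannot be told apart.

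In sham mice the order of the 5 genes per length of transcript was the same in the 4 genotypes. Levels were compared as CPM per kilobase, using transcripts of 1347 (Fcgr3), 674 (Fcer1g), 2589 (Fcgr1), 3544 (Fcgr2b) and 1256 bases (Fcgr4). In E3/Abca1+/+ sham mice Fcgr3 was at 10.9 ± 2.68, Fcer1g at 9.99 ± 0.932, Fcgr1 at 1.45 ± 0.450, Fcgr2b at 0.976 ± 0.249 and Fcgr4 at 0.178 ± 0.135 CPM per kilobase (SD, n = 8). Fcgr3 and Fcer1g, neighbours in this order, did not differ beyond their spread. Fcgr3 made up 80.3% ± 4.06 of the summed receptor level per kilobase in this group, and between 78.1% and 82.5% on average in the other sham groups. The high-affinity receptor Fcgr1 came next, at 10.8% ± 2.13.

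The first comparison asks how injury changed the receptors within each genotype. All 5 genes rose after TBI in each of the 4 genotypes (edgeR's quasi-likelihood test with Benjamini-Hochberg adjustment, adjusted p below 0.05), and no injured mouse overlapped with any sham mouse of its genotype for any of the 5 genes. The share of all genes that separated as fully was not counted, so this separation is a description only. Of all genes tested, 12.3% were called higher after TBI in E3/Abca1+/+, 13.4% in E3/Abca1+/-, 8.82% in E4/Abca1+/+ and 17.7% in E4/Abca1+/- mice. In that order the receptor genes had medians of 1.67, 1.72, 1.88 and 2.25 on the log2 fold change scale, beside medians between -0.0042 and 0.0078 over all genes tested. The deposited table lists a gene only if it exceeds 1 CPM in at least 6 mice, and Fcgr4 exceeded it in 0 sham mice and 29 TBI mice, so it is listed through the injured mice alone, whereas the other 4 genes exceeded it in all 58.

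Among the activating receptors, Fcgr1, which binds monomeric immunoglobulin G with high affinity, ran from 2.76 to 6.39 CPM (median 3.36) in E3/Abca1+/+ sham and from 7.40 to 15.7 CPM (median 11.9) in E3/Abca1+/+ TBI mice. In E3/Abca1+/- mice it ran from 3.05 to 4.16 (median 3.32) in sham and from 9.31 to 15.5 CPM (median 10.8) in TBI mice. In E4/Abca1+/+ mice these values were 2.13 to 5.01 (median 3.87) and 8.89 to 18.1 CPM (median 10.6). In every genotype the lowest injured mouse lay above the highest sham mouse. In E4/Abca1+/- mice Fcgr1 ran from 2.69 to 6.84 (median 4.06) in sham and from 7.86 to 29.1 CPM (median 16.7) in TBI mice, the widest range among TBI mice. Fcgr1 had a log2 fold change of 1.60 (SE 0.18) in E3/Abca1+/+, 1.72 (SE 0.12) in E3/Abca1+/-, 1.56 (SE 0.18) in E4/Abca1+/+ and 2.07 (SE 0.24) in E4/Abca1+/- mice. Over the 5 genes the adjusted p reached at most 1.76e-06, 8.95e-08, 0.000182 and 6.27e-06 in these genotypes (edgeR's quasi-likelihood test).

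Fcgr3, the low-affinity receptor for immune complexes, had the highest level per kilobase of the 4 receptors in every mouse. It ran from 9.17 to 20.0 CPM (median 15.1) in E3/Abca1+/+ sham and from 29.3 to 50.0 (median 35.7) in E3/Abca1+/+ TBI mice, and from 11.8 to 15.7 (median 14.4) and from 29.5 to 50.7 CPM (median 38.2) in E3/Abca1+/- mice. In E4/Abca1+/+ mice it ran from 11.4 to 14.0 CPM (median 12.6) in sham and from 27.0 to 59.4 (median 32.2) in TBI mice. E4/Abca1+/- mice had 14.0 to 25.7 CPM (median 18.5) in sham and 38.3 to 75.1 (median 53.0) in TBI mice, the highest values of Fcgr3 in either condition. Its log2 fold changes were the smallest of the 5 genes in each genotype, at 1.36 (SE 0.14), 1.51 (SE 0.11), 1.51 (SE 0.16) and 1.60 (SE 0.14) in E3/Abca1+/+, E3/Abca1+/-, E4/Abca1+/+ and E4/Abca1+/- mice.

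Fcgr4, the receptor for immunoglobulin G2a and G2b, was near the limit of detection in sham mice. Its counts in sham mice ran from 0 to 7 in E3/Abca1+/+, 1 to 5 in E3/Abca1+/-, 0 to 5 in E4/Abca1+/+ and 3 to 19 in E4/Abca1+/- mice, and 7 of 8, 4 of 7, 6 of 7 and 2 of 7 of these mice were at or under 3 counts, the floor used here. After TBI it ran from 1.27 to 3.60 CPM (median 2.45) in E3/Abca1+/+, 1.47 to 3.14 (median 1.81) in E3/Abca1+/-, 1.56 to 4.52 (median 2.16) in E4/Abca1+/+ and 2.19 to 8.44 CPM (median 4.28) in E4/Abca1+/- mice. The lowest injured mouse, at 1.27 CPM, lay above the highest sham mouse of any genotype, at 0.774 CPM. Fcgr4 is listed only because injured mice exceeded 1 CPM, so neither this separation nor the ratios that follow are independent of that filter. The ratio of group means was 10.6 in E3/Abca1+/+, 14.4 in E3/Abca1+/-, 12.0 in E4/Abca1+/+ and 11.8 in E4/Abca1+/- mice, above those of the other 4 genes throughout. The log2 fold changes were 3.42 (SE 0.37), 3.81 (SE 0.28), 3.36 (SE 0.39) and 3.49 (SE 0.39) in the same order, and their precision is limited by the few counts in sham mice.

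Fcgr2b, the inhibitory receptor, had a larger estimated fold change than Fcgr1 and Fcgr3 in each genotype, a difference that was not tested. It ran from 2.44 to 5.03 CPM (median 3.49) in sham and from 9.30 to 21.4 (median 14.4) in TBI mice of the E3/Abca1+/+ genotype, and from 2.05 to 3.51 (median 3.23) and 10.8 to 17.8 CPM (median 14.8) in E3/Abca1+/- mice. E4/Abca1+/+ mice had 2.69 to 4.34 CPM (median 3.81) in sham and 9.45 to 32.2 (median 11.6) in TBI mice, where 2 females, replicates 6 and 7, lay well above the other 5 mice. In E4/Abca1+/- mice it ran from 3.84 to 6.96 (median 3.98) in sham and from 14.3 to 33.8 CPM (median 24.0) in TBI mice. The log2 fold changes of Fcgr2b were 2.13 (SE 0.18), 2.33 (SE 0.15), 2.04 (SE 0.27) and 2.38 (SE 0.16) in E3/Abca1+/+, E3/Abca1+/-, E4/Abca1+/+ and E4/Abca1+/- mice. In the last of these Fcgr2b had the smallest p-value but 1 of the 15083 genes tested (adjusted p = 2.42e-07, edgeR).

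Fcer1g, the gamma chain that the activating receptors need at the cell surface, ran from 5.56 to 7.60 CPM (median 6.74) in E3/Abca1+/+ sham and from 13.95 to 30.4 (median 18.6) in E3/Abca1+/+ TBI mice. In E3/Abca1+/- mice it ran from 5.83 to 7.88 (median 6.64) in sham and from 17.1 to 28.6 CPM (median 19.9) in TBI mice, and in E4/Abca1+/+ mice from 4.598 to 8.15 (median 5.67) and from 12.6 to 44.9 CPM (median 17.5). E4/Abca1+/- mice had 5.62 to 10.3 CPM (median 6.54) in sham and 18.5 to 53.8 (median 34.6) in TBI mice. Its log2 fold change was 1.67 (SE 0.16), 1.72 (SE 0.12), 1.88 (SE 0.26) and 2.25 (SE 0.18) in E3/Abca1+/+, E3/Abca1+/-, E4/Abca1+/+ and E4/Abca1+/- mice. Per kilobase, Fcer1g averaged above Fcgr3 in each injured group, at 52.6 ± 15.1 against 41.8 ± 9.09 CPM per kilobase in E4/Abca1+/- TBI mice, the reverse of the order in sham mice and within the spread. In E4/Abca1+/- mice the ratio of Fcer1g to the sum of the 3 activating receptors, per kilobase, was 0.710 ± 0.105 (SD, n = 7) in sham and 1.005 ± 0.113 (n = 8) in TBI mice, whereas it was 0.844 ± 0.262 and 0.920 ± 0.115 in E3/Abca1+/+ mice. The E3/Abca1+/- values were 0.818 ± 0.0823 in sham and 0.909 ± 0.181 in TBI mice, and those of E4/Abca1+/+ were 0.775 ± 0.170 and 0.894 ± 0.180. In these 3 genotypes the difference was smaller than the larger SD. These ratios were not tested.

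**Figure D1:**
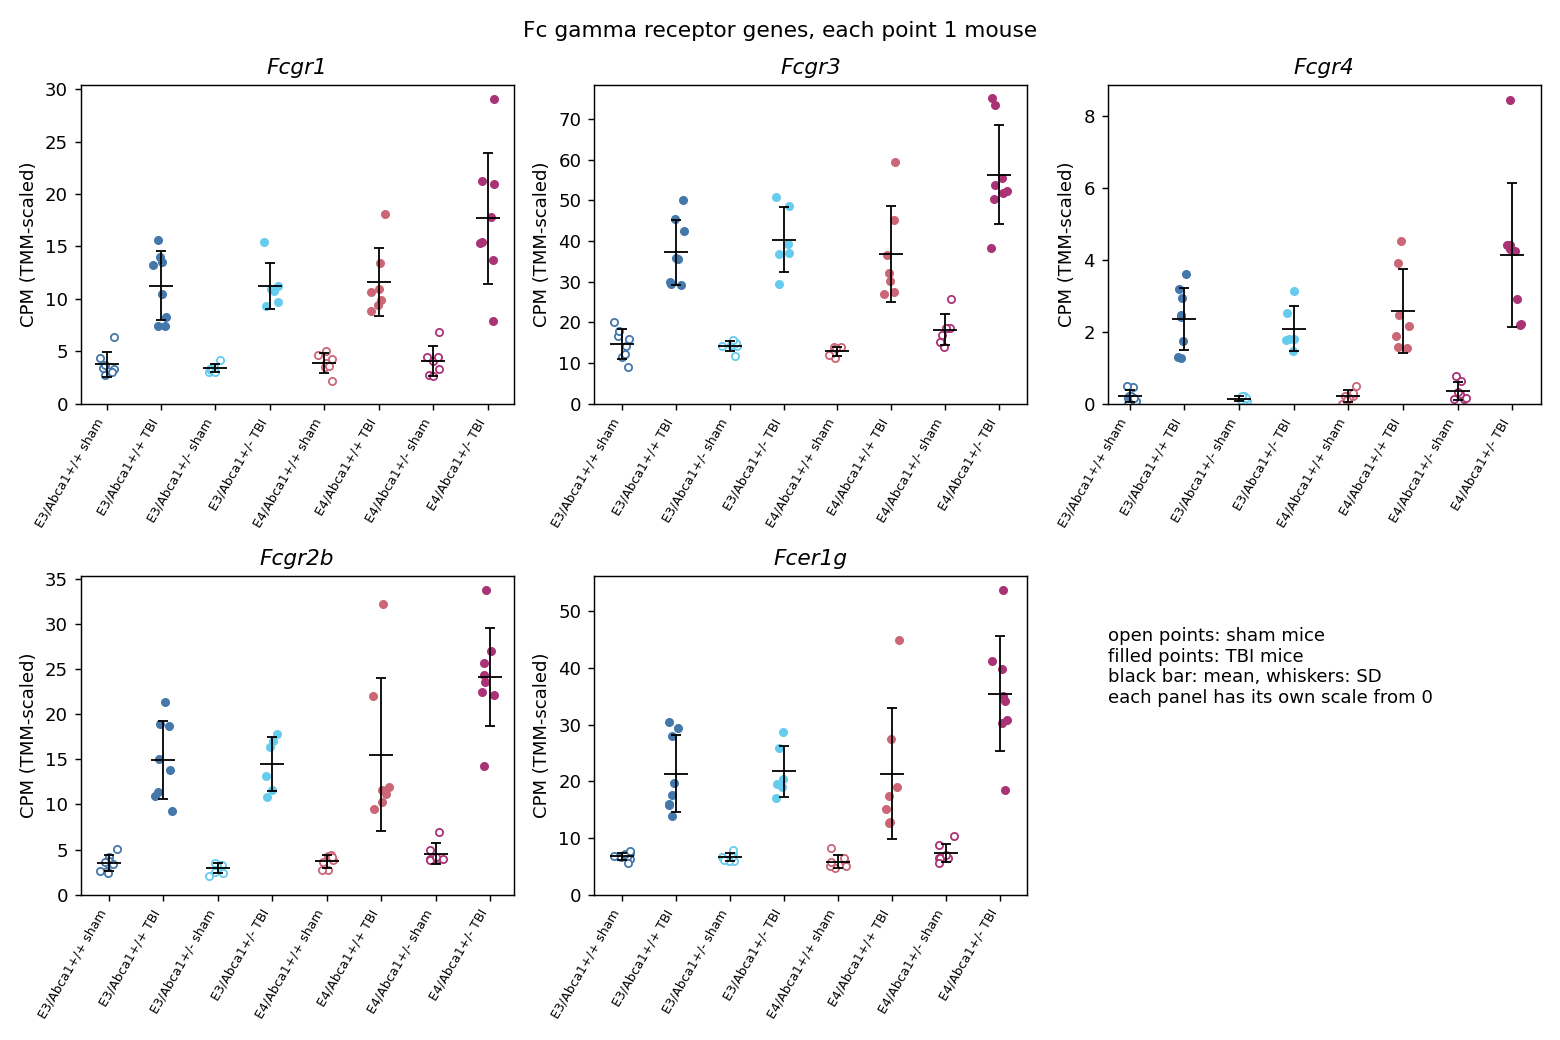
TMM-scaled CPM of Fcgr1, Fcgr3, Fcgr4, Fcgr2b and Fcer1g in each of the 58 mice, by group, with open points for sham and filled points for TBI mice, a black bar for the group mean and whiskers for the SD. Each panel starts at 0 with its own scale. Injured and sham mice of a genotype do not overlap for any of these genes. The share of all genes that separate as fully was not counted, and Fcgr4 is listed only through injured mice. The group mean is highest in E4/Abca1+/- TBI mice, from 4.14 CPM for Fcgr4 to 56.4 CPM for Fcgr3.

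**Figure D2:**
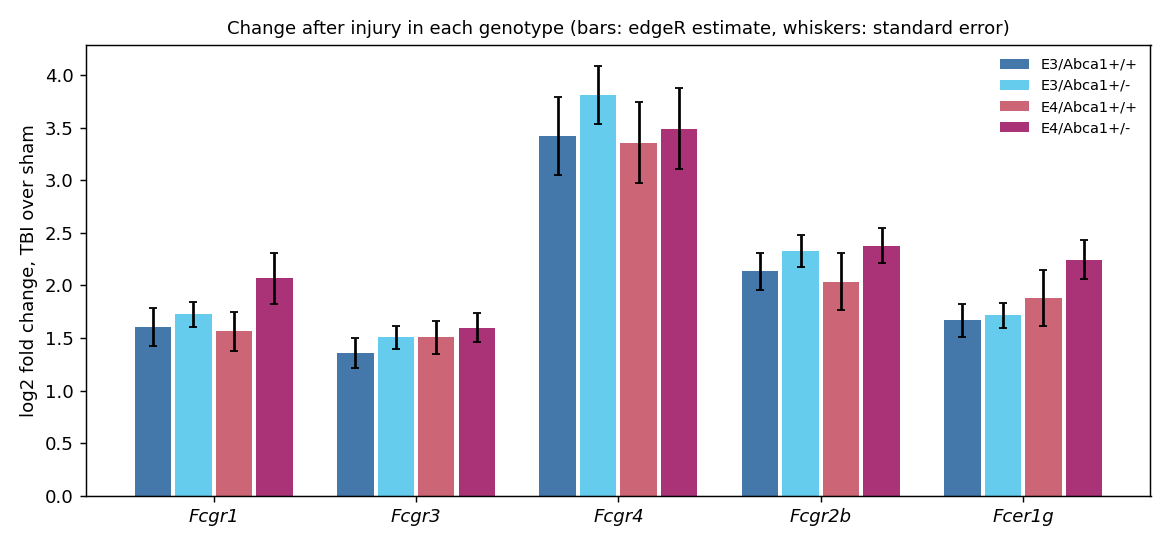
The log2 fold change of TBI over sham (vertical axis) for each gene, with a bar for each genotype from edgeR's fit and whiskers for the standard error. Bars run from 1.36 for Fcgr3 in E3/Abca1+/+ mice to 3.81 for Fcgr4 in E3/Abca1+/- mice, and Fcgr4 is the tallest and Fcgr3 the shortest in each genotype.

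The genes rose by unequal amounts, so their proportions differed between sham and TBI mice. The ratio of Fcgr3 to Fcgr2b within a mouse, in CPM, was 4.61 ± 1.89 in E3/Abca1+/+ sham and 2.56 ± 0.337 in TBI mice, 5.02 ± 0.735 and 2.81 ± 0.357 in E3/Abca1+/-, 3.63 ± 0.841 and 2.60 ± 0.695 in E4/Abca1+/+, and 4.07 ± 0.562 and 2.35 ± 0.264 in E4/Abca1+/- mice (SD). All 6 injured E3/Abca1+/- mice and all 8 injured E4/Abca1+/- mice lay below the lowest sham mouse of their genotype, as did 3 of 8 E3/Abca1+/+ and 5 of 7 E4/Abca1+/+ mice. The ratio of Fcgr1 to Fcgr2b moved the same way on average, from 1.13 to 0.764 in E3/Abca1+/+ and from 0.892 to 0.721 in E4/Abca1+/- mice, but injured and sham mice overlapped in each genotype. Fcgr4 moved the other way: its ratio to Fcgr2b was 0.0504 ± 0.0213 in E3/Abca1+/- sham and 0.143 ± 0.0241 in TBI mice, and all 6 of these TBI mice and all 7 of the E4/Abca1+/+ TBI mice lay above the highest sham mouse of their genotype, against 1 of 8 in E3/Abca1+/+ and 4 of 8 in E4/Abca1+/- mice. Per kilobase, the share of Fcgr3 among the receptors averaged between 78.1% and 82.5% in the sham groups and between 71.6% and 74.7% in the TBI groups. The share of Fcgr2b was 7.65% ± 2.97 and 10.9% ± 1.11 in E3/Abca1+/+ sham and TBI mice and 7.70% ± 0.906 and 11.7% ± 1.18 in E4/Abca1+/- mice, and that of Fcgr4 was 1.27% ± 0.873 and 4.84% ± 1.08, and 1.58% ± 0.944 and 5.43% ± 1.51. These ratios and shares are descriptions without a test, and those of Fcgr2b and Fcgr3 carry the uncertainty from reads the genes share. Those of Fcgr4 rest on few counts in sham mice. Fcgr4 is also listed only because injured mice exceeded 1 CPM, so its higher ratio and share after TBI are not independent of that filter.

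**Figure D3:**
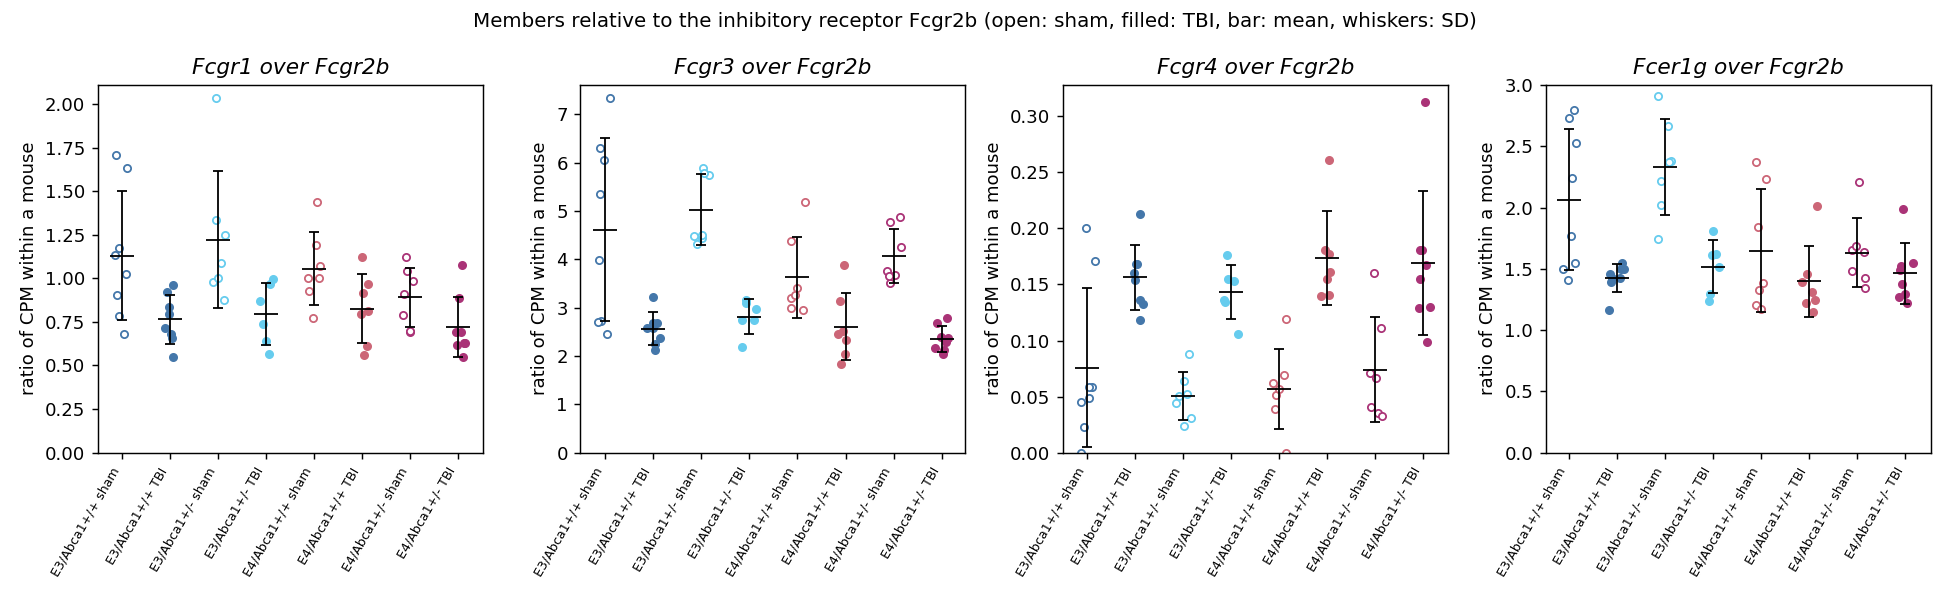
Ratio of the CPM of Fcgr1, Fcgr3, Fcgr4 and Fcer1g to that of Fcgr2b in the same mouse, by group, with open points for sham and filled points for TBI mice, a bar for the mean and whiskers for the SD. Axes start at 0. The mean ratio of Fcgr3 is lower and that of Fcgr4 higher in TBI than in sham mice of each genotype, as in E4/Abca1+/- mice from 4.07 to 2.35 and from 0.0741 to 0.169. Fcgr4 had few counts in sham mice and is listed only through injured mice, so its difference is not independent of that filter.

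The 8 microglia and macrophage markers rose in each genotype as well (8 of 8 in all 4), with median log2 fold changes of 1.05, 0.86, 1.03 and 1.26 in E3/Abca1+/+, E3/Abca1+/-, E4/Abca1+/+ and E4/Abca1+/- mice. Their summed CPM ran from 328 to 508 in sham and from 602 to 1242 in TBI mice. Set against the mean log2(CPM + 1) of these markers within a mouse, all 5 genes still averaged higher after TBI in each genotype, by 0.70 to 1.04 for Fcgr2b, 0.42 to 0.80 for Fcer1g, 0.29 to 0.54 for Fcgr1, 0.37 to 0.56 for Fcgr4 and 0.23 to 0.48 for Fcgr3. The added 1 CPM understates the change of genes near or below that level, most of all Fcgr4 in sham mice, so these differences do not rank the genes. For Fcgr2b, 28 of the 29 injured mice lay above the highest sham mouse of their genotype on this scale, more than for any other member. In E3/Abca1+/+ mice these were 7 of 8 for Fcgr2b and for Fcer1g, 5 for Fcgr4, 3 for Fcgr1 and 2 for Fcgr3. The share of all genes that separate in this way was not counted. The level per cell of markers such as Cd68, Aif1, P2ry12, Tmem119 and Cx3cr1 can itself change in activated cells, in either direction. These differences may therefore be too small or too large as changes per cell. The part of cell number in the changes of the receptors was not tested. Monocyte and neutrophil markers (4 of 8 analysed) summed to 0 to 1.72 CPM in sham and 1.59 to 21.0 CPM in TBI mice. All 4 passed in E4/Abca1+/- and 2 of 2 tested in E3/Abca1+/- mice, whereas 0 could be tested in E3/Abca1+/+ and E4/Abca1+/+ mice. Median sums in TBI mice were 5.25, 5.07, 2.45 and 5.26 CPM in E3/Abca1+/+, E3/Abca1+/-, E4/Abca1+/+ and E4/Abca1+/- mice. T cell markers (3 of 6 analysed) summed to at most 3.54 CPM in sham and 15.5 CPM in TBI mice, and dendritic cell markers (3 of 5 analysed) ran from 19.2 to 27.7 and from 22.1 to 40.4 CPM. The part of these cells in the result was not tested either. Astrocyte markers rose (3 of 3 in each genotype), neuronal markers fell in 2 to 4 of 4 and endothelial markers passed in 0 or 1 of 3.

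Immunoglobulin transcripts were followed with 14 genes, of which 5 (Ighm, Ighg2c, Igha, Igkc, Jchain) were analysed. Among these only Ighg2c encodes a heavy chain of immunoglobulin G, the ligand of these receptors, so the counts below are not counts of ligand genes. After TBI 2 of 4 tested rose in E3/Abca1+/+, 3 of 5 in E3/Abca1+/-, 2 of 3 in E4/Abca1+/+ and 4 of 4 in E4/Abca1+/- mice, with median log2 fold changes of 2.27, 3.54, 3.37 and 5.12. Igkc, the kappa light chain, ran from 0.0548 to 0.896 CPM in sham and from 1.83 to 250 CPM in TBI mice there, so 1 injured mouse was far above the rest. Igha, the heavy chain of immunoglobulin A, rose in each genotype, with log2 fold changes of 4.03, 5.38, 4.34 and 5.58, and Igkc did so with 4.54, 3.83, 3.37 and 6.44, in E3/Abca1+/+, E3/Abca1+/-, E4/Abca1+/+ and E4/Abca1+/- mice. Ighg2c, a heavy chain of immunoglobulin G that the activating receptors bind, did not pass in the 2 genotypes where enough mice had counts for a test (log2 fold change 0.50, adjusted p = 0.365 in E3/Abca1+/+ and -0.08, adjusted p = 0.821 in E3/Abca1+/- mice, edgeR). In E4/Abca1+/- TBI mice it ran from 0.281 to 66.45 CPM and was not tested. For the summed list, APOE3 sham mice were between 15.2 and 30.2 CPM, APOE4 sham mice between 9.77 and 17.8 CPM and TBI mice between 17.9 and 568.1 CPM. In sham mice 2 of 2 genes tested were lower with APOE4 in Abca1+/+ mice (median log2 fold change -2.81) and 2 of 3 in Abca1+/- mice (median -0.84), where the 2 were Ighm and Ighg2c. Of all genes tested, 0.346% and 5.27% were called in these comparisons, and few of the 14 listed genes could be tested.

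Of the 14 genes that carry the signal below the receptors, 13 of 14 rose in E3/Abca1+/+, E3/Abca1+/- and E4/Abca1+/- and 11 of 13 in E4/Abca1+/+ mice, with medians of 1.15, 1.11, 1.50 and 1.13. Pik3cd, the delta catalytic subunit of phosphoinositide 3-kinase, passed in none of the genotypes, with log2 fold changes of -0.0070, 0.07, 0.14 and 0.13 in E3/Abca1+/+, E3/Abca1+/-, E4/Abca1+/+ and E4/Abca1+/- mice, and the adaptor Blnk did not pass in E4/Abca1+/+ mice (0.34). In E4/Abca1+/- mice the smallest p-values were those of Vav1, a guanine nucleotide exchange factor (log2 fold change 1.77), Btk, a Tec-family kinase (2.05), Tyrobp, the other ITAM adaptor of microglia (2.22), and Lat2, a scaffold (2.14). Of the inhibitory effectors, Ptpn6, the phosphatase SHP1, rose by 1.64 to 2.20 and Inpp5d, the phosphatase SHIP1 that Fcgr2b recruits, by 0.88 to 1.24 across the genotypes. Dok1 also rose in each, whereas Dok3 passed in none (-0.05 to 0.47). Fcrls, a microglial Fc receptor-like gene, rose by 1.42 to 1.71 and Trim21, the cytosolic antibody receptor, by 0.90 to 1.01, whereas Fcgrt, the neonatal Fc receptor that recycles immunoglobulin G, had log2 fold changes of 0.36 to 0.59 across the genotypes and missed the threshold in E3/Abca1+/+ mice (adjusted p = 0.0524, edgeR).

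Of other receptors that use the gamma chain, 3 of 6 were analysed, and they were tested in E4/Abca1+/- mice, where Clec4d (log2 fold change 4.26) and Clec4n (2.14), C-type lectins of myeloid cells, rose and Oscar did not pass (-0.07). Clec4d was at 0 counts in each of the 8 E3/Abca1+/+ and 7 E4/Abca1+/+ sham mice. Of 13 regulators analysed, 10 or 11 rose in each genotype, with medians of 0.96, 0.91, 0.92 and 1.39. Spi1, which encodes PU.1, rose by 1.42 to 1.86 and Irf1 by 0.70 to 1.07, and Ifngr1, a chain of the interferon gamma receptor, by 0.77 to 0.96. Ifngr2, the other chain, and Cebpb passed in none of the genotypes (0.05 to 0.09 and -0.08 to 0.43).

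The next comparisons ask whether loss of 1 copy of Abca1 changed the receptors. In APOE3 mice none of the genes tested passed, with 0 of 4 in sham and 0 of 5 in injured mice (0 at an unadjusted p under 0.05 and 0 with DESeq2 in both), beside 2.51% and 0.18% of all genes called. Of all genes, 16.7% and 9.07% were at an unadjusted p under 0.05. The 95% intervals of the log2 fold changes in injured APOE3 mice ran from -0.36 to 0.38 for Fcer1g, -0.36 to 0.34 for Fcgr1, -0.42 to 0.29 for Fcgr2b, -0.17 to 0.40 for Fcgr3 and -0.71 to 0.27 for Fcgr4. In APOE4 sham mice 1 of 4 genes passed, beside 0.99% of all genes called. It was Fcgr3, at 12.9 ± 1.01 CPM in E4/Abca1+/+ and 18.2 ± 3.74 in E4/Abca1+/- mice (log2 fold change 0.52, SE 0.11, adjusted p = 0.0360, edgeR), and without E4/Abca1+/- sham replicate 2 its log2 fold change was 0.41 (adjusted p = 0.0437, edgeR). Fcgr3 did not pass when thinned to equal depth (0.57, adjusted p = 0.304, edgeR) or in the single fit over all 58 mice (0.51, adjusted p = 0.132, edgeR). Of the 8 microglia and macrophage markers, 7 were higher in the same mice by estimate, 4 at an unadjusted p under 0.05 and 0 after adjustment, with a median log2 fold change of 0.15, and their part in the difference was not tested. Fcgr4 had too few counts in sham mice to be tested.

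In injured APOE4 mice all 5 genes were higher in Abca1+/- mice by estimate but 0 of 5 passed (edgeR's quasi-likelihood test; 5 at an unadjusted p under 0.05, and 1 with DESeq2), beside 1.47% of all genes called and 18.4% at an unadjusted p under 0.05. Means were 17.7 ± 6.27 against 11.6 ± 3.21 CPM for Fcgr1, 56.4 ± 12.2 against 36.8 ± 11.7 for Fcgr3, 4.14 ± 1.99 against 2.58 ± 1.17 for Fcgr4, 24.2 ± 5.47 against 15.5 ± 8.50 for Fcgr2b and 35.5 ± 10.2 against 21.4 ± 11.5 CPM for Fcer1g (SD, n = 8 and 7). The log2 fold changes were 0.60, 0.61, 0.68, 0.64 and 0.74 in that order, with the smallest adjusted p for Fcgr3 (0.0715, edgeR). The count depended on 1 mouse. Without E4/Abca1+/+ TBI replicate 6, the highest of its group for each of the 5 genes, 3 of 5 passed (edgeR), namely Fcgr2b (log2 fold change 0.89), Fcgr3 (0.75) and Fcer1g (1.00). A single fit over all 58 mice called 4. The microglia and macrophage markers were also higher by estimate in 8 of 8, with 1 called and a median of 0.35, and the replicate 6 named above had 1098 CPM of them summed, against 602 to 968 in the other 6 mice. Their part in the difference was not tested, and the median total count was 15116303.5 in these Abca1+/- mice and 6835372 in the Abca1+/+ mice.

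The comparison of isoforms asks whether APOE4 differed from APOE3. Without loss of Abca1, 0 of 4 genes in sham and 0 of 5 in injured mice passed (edgeR; 1 and 0 at an unadjusted p under 0.05, 0 and 0 with DESeq2), beside 0.346% and 0.207% of all genes called and 8.89% and 7.21% at an unadjusted p under 0.05. The intervals in injured mice were wide, from -0.57 to 0.49 for Fcer1g and from -0.36 to 0.40 for Fcgr1. In Abca1+/- sham mice 2 of 4 were at an unadjusted p under 0.05, beside 23.4% of all genes. After adjustment 1 of 4 passed, beside 5.27% of all genes called. It was Fcgr2b, at 2.90 ± 0.561 CPM in E3 and 4.54 ± 1.13 CPM in E4 mice (log2 fold change 0.67, SE 0.16, adjusted p = 0.0242, edgeR), and without E4/Abca1+/- sham replicate 2 its log2 fold change was 0.53 (adjusted p = 0.0435, edgeR). All 7 E4/Abca1+/- sham mice were above the highest E3/Abca1+/- sham mouse for this gene, at 3.51 CPM. The gene was picked by its test on the same values, and the share of all genes that separate as fully was not counted. In libraries thinned to equal depth Fcgr2b did not pass, with a log2 fold change of 1.57 (adjusted p = 0.237, edgeR). Nor did it pass in the single fit over all 58 mice (0.67, adjusted p = 0.0542, edgeR).

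In injured Abca1+/- mice 2 of 5 genes were higher with APOE4, beside 2.87% of all genes called. Fcgr2b was at 24.2 ± 5.47 CPM in E4 (n = 8) and 14.5 ± 2.99 in E3 mice (n = 6), a log2 fold change of 0.72 (SE 0.16, adjusted p = 0.0221, edgeR), and Fcer1g was at 35.5 ± 10.2 and 21.7 ± 4.49 CPM, a log2 fold change of 0.69 (SE 0.18, adjusted p = 0.0489, edgeR). Fcgr1, Fcgr3 and Fcgr4 had log2 fold changes of 0.63, 0.46 and 0.96 and adjusted p-values of 0.120, 0.0892 and 0.0809 (edgeR), and all 5 genes were at an unadjusted p under 0.05, beside 18.7% of all genes. The groups overlapped for each gene. For Fcgr1, Fcgr3 and Fcgr4 at least 1 other E4 mouse overlapped besides E4/Abca1+/- TBI replicate 4, and for Fcgr2b and Fcer1g only replicate 4 did. That mouse was the lowest of its group for Fcgr1, Fcgr3, Fcgr2b and Fcer1g, with 14.3 CPM of Fcgr2b. Without this mouse 4 of 5 passed, and without any 1 of E3/Abca1+/- TBI replicates 1, 2 and 3, none did. All 5 passed with DESeq2 and in a single fit over all 58 mice, and 0 in libraries thinned to the lowest total. The microglia and macrophage markers were higher in 8 of 8, with 2 called (Aif1 and Cx3cr1) and a median log2 fold change of 0.46. Against their mean log2(CPM + 1) within a mouse, Fcer1g was at -1.28 ± 0.245 in E4 and -1.49 ± 0.175 in E3 mice and Fcgr2b at -1.80 ± 0.204 and -2.04 ± 0.144, differences near the size of the spread. The 3 T cell markers analysed were also higher by estimate, each at an unadjusted p under 0.05 and 0 after adjustment, with a median log2 fold change of 1.00. The part of the markers was not tested. This comparison and the Abca1 comparison in injured APOE4 mice share the 8 E4/Abca1+/- TBI mice, so they are not independent of each other.

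**Figure D4:**
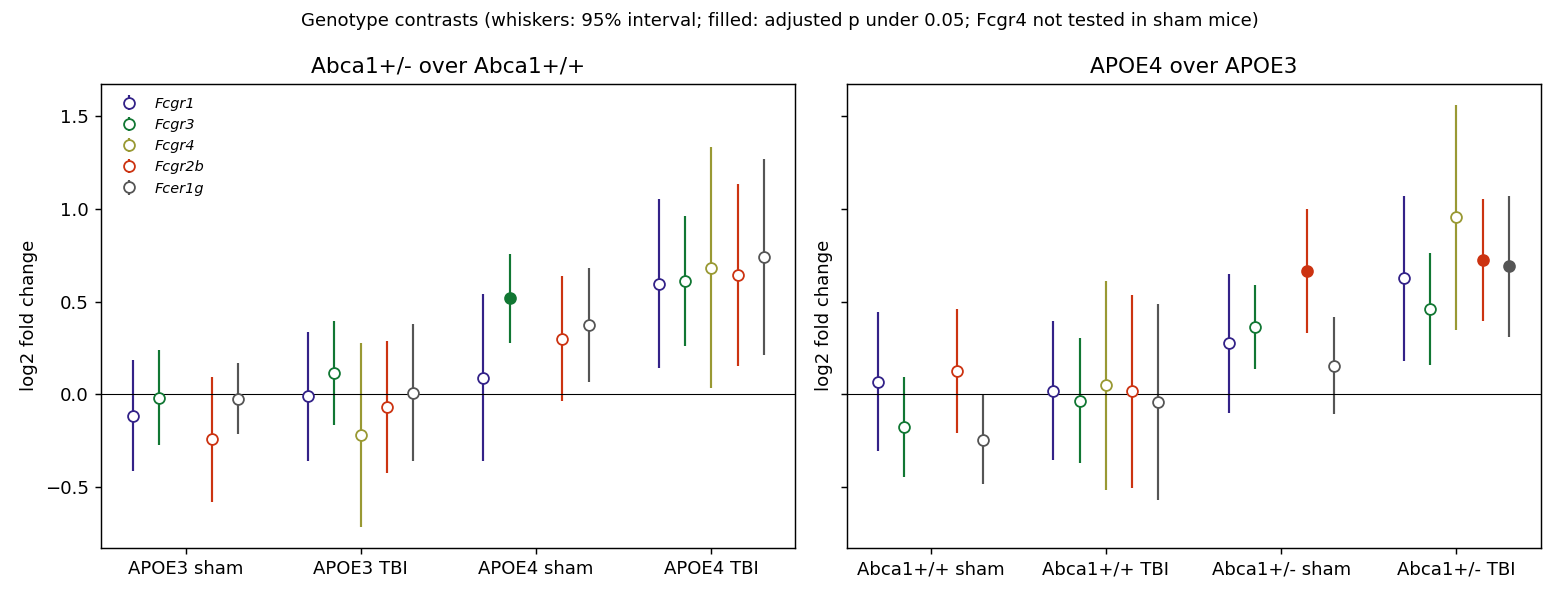
The log2 fold change of Abca1+/- over Abca1+/+ mice (left) and of APOE4 over APOE3 mice (right) for each gene in each condition, with whiskers for the 95% interval and filled points for an adjusted p under 0.05. Points filled are Fcgr3 in APOE4 sham mice (0.52), Fcgr2b in Abca1+/- sham mice (0.67), and Fcgr2b (0.72) and Fcer1g (0.69) in injured Abca1+/- mice, and Fcgr4 was not tested in sham mice.

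Whether genotype changed the response to injury itself was tested as an interaction, which passed for 0 of 5 genes in each of the 4 fits (edgeR, and 0 with DESeq2), beside 0.0% of all genes called in each. At an unadjusted p under 0.05 there were 0 genes for Abca1 in APOE3 mice, 0 for Abca1 in APOE4 mice, 0 for isoform in Abca1+/+ mice and 1 for isoform in Abca1+/- mice, beside 2.12%, 4.85%, 2.11% and 6.34% of all genes. That 1 was Fcer1g, with an interaction of 0.55 (SE 0.24, adjusted p = 0.762, edgeR), and 0.64 (adjusted p = 0.495, edgeR) without E4/Abca1+/- sham replicate 2. The Abca1 interaction in APOE4 mice had a positive estimate for each of the 5 genes, from 0.11 for Fcgr3 and Fcgr4 to 0.52 for Fcgr1, with a 95% interval for Fcgr1 from -0.16 to 1.202. Without E4/Abca1+/- sham replicate 2 these estimates were 0.21 for Fcgr3, 0.47 for Fcgr4, 0.49 for Fcer1g, 0.50 for Fcgr2b and 0.70 for Fcgr1, and 0 of 5 passed (edgeR). A difference in the response to injury was not detectable with these groups, and the intervals still hold differences of up to their ends.

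Sex was known for each mouse and was compared as the interaction of injury with sex over all 58 mice. In the injured groups the female mean was above the male mean in 20 of 20 values (5 genes in 4 genotypes), by ratios from 1.01 to 1.95, against 7 of 20 in the sham groups, where ratios ran from 0.435 to 1.32. The 5 genes share the same mice, so these are not 20 independent values. The interaction was positive for each gene, at 0.38 for Fcgr3, 0.42 for Fcer1g, 0.39 for Fcgr1, 0.33 for Fcgr2b and 1.05 for Fcgr4, but 0 of 5 passed (smallest adjusted p = 0.467, edgeR; 3 at an unadjusted p under 0.05, and 0 with DESeq2), beside 0.0% of all genes called and 7.47% at an unadjusted p under 0.05. In injured E4/Abca1+/+ mice, which had the highest ratio, females had 21.5 ± 11 CPM of Fcgr2b (n = 3) and males 11.05 ± 1.11 (n = 4), and the summed microglia and macrophage markers had a ratio of 1.37. The part of these markers was not tested.

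Finally, the genes were compared from mouse to mouse within groups. Over the 29 injured mice, with group means of log2(CPM + 1) subtracted, each of the 10 pairs was positively correlated, from r = 0.75 and rho = 0.72 for Fcgr1 with Fcgr2b to r = 0.90 and rho = 0.85 for Fcgr2b with Fcer1g (permutation within groups, 100000 resamples, p of 3e-05 or less for r and 5e-05 or less for rho, with the same upper limits after Benjamini-Hochberg adjustment over the 10 pairs, where 1e-05 is the smallest p these resamples can give). Without the 2 mice farthest from the median, r ran from 0.73 to 0.85 without a change of sign. Over the 29 sham mice the median r was 0.39 against 0.84 in injured mice, and r ran from 0.10 for Fcgr2b with Fcgr3 to 0.55 for Fcgr3 with Fcgr4. Without the 2 sham mice farthest from the median r ran from -0.0442 to 0.50, and Fcgr2b with Fcgr3 and with Fcgr4 changed sign. The difference between the sets was not tested, and the counts in sham mice were lower. Over all 58 mice, again within groups, the genes most like each member were Pld4 for Fcgr1 (r = 0.78), C1qb for Fcgr3 (r = 0.83), Rac2 for Fcgr4 (r = 0.80), Samhd1 for Fcgr2b (r = 0.84) and Trem2 for Fcer1g (r = 0.89), among 14380 genes with a mean of at least 1 CPM. C1qa and C1qc, chains of the complement component that also binds immune complexes, were among the 5 most alike for Fcer1g (r = 0.88 for both), and C1qa was next after C1qb for Fcgr3 (r = 0.82). Among these 14380 genes the members ranked from 6 (Fcer1g for Fcgr4) to 295 (Fcgr3 for Fcgr2b) in likeness to each other. Genes outside the family were thus closer to each member than any other member was, and pairs of such genes were not tested. These are descriptions over mice that share depth and tissue composition.

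**Figure D5:**
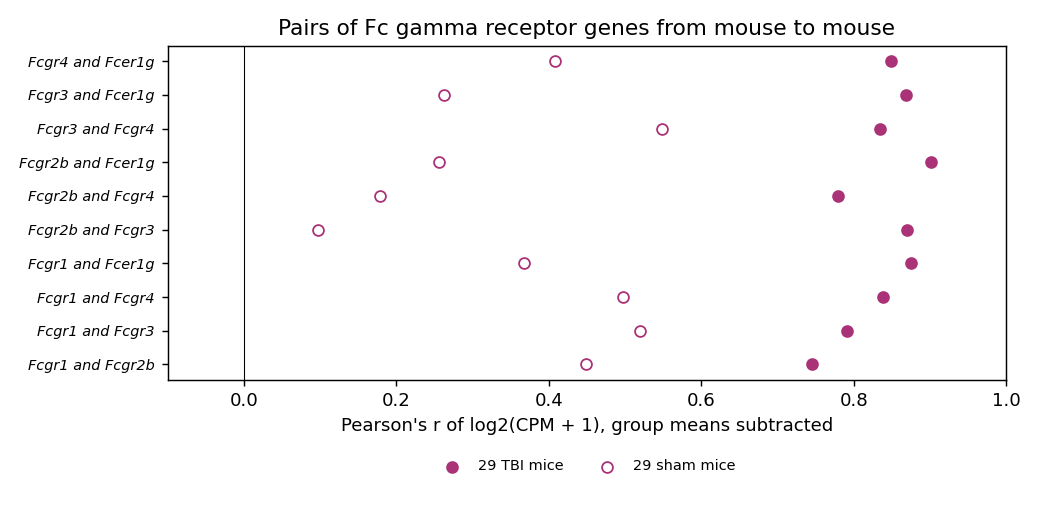
Pearson's r (horizontal axis) of log2(CPM + 1), with group means subtracted, for each of the 10 pairs of genes, over 29 TBI mice (filled points) and 29 sham mice (open points). In the TBI mice the points lie between 0.75 and 0.90, and in the sham mice between 0.10 and 0.55.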

How the data were processed

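RNA-seq read counts per gene of 58 mouse brain samples were used. Per the labels' processing notes the authors used Subread 1.5.0 and featureCounts with the build mm10, and the values they deposited are whole-number counts without normalization, with 2 blank lines, which were dropped, and 23 symbols stored as dates, which were named from their identifiers. Handling of reads that match several genes, strand and read length are not given in the sources used here. The groups come from the sample titles and replicate numbers are accession order. Each sample is a separate mouse.

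CPM were computed with TMM factors (0.9544 to 1.038). Groups were compared with edgeR 4.0.16 (R 4.3.3) by the quasi-likelihood test on the counts, after filterByExpr over the groups in each fit, at a Benjamini-Hochberg adjusted p under 0.05 over all genes tested. Fits used only the groups compared, 4 groups for interactions and 58 mice for injury by sex. The standard error is the log2 fold change divided by the root of F, and the 95% interval uses the t distribution with the fit's degrees of freedom. Tests were tried on simulated counts. Correlations used scipy 1.17.1. Transcript lengths, positions and coding sequences are from GENCODE for GRCm38, promoters from RefSeq. Signalling motifs were searched in translated coding sequences, since no table of proteins was used here. Promoter entries were found for 5 of 5 genes. A further promoter motif and some listed genes are not reported here. Precision is limited by total counts of 4421308 to 37877346 per mouse. No duplicate library was found (0 of 183 pairs compared).

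The genes named are the 5 members, Abca1, up to 4 genes per list with the smallest p-values in E4/Abca1+/- mice, listed genes at the floor, and the genes most like each member. Pik3cd, Blnk, Ifngr2, Cebpb and Ighg2c were named after their values were seen. The members and lists were chosen with earlier results of these data known. Alternatives were DESeq2 1.42.0 size factors and Wald test, no filter, at least 10 counts in every mouse, a sex covariate, a single fit over all mice, thinning to 4421308 counts and leaving out each mouse (87 fits). The fits without E4/Abca1+/- sham replicate 2 were added after seeing the data.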

Additional observations from a re-analysis of the deposited data

Results flagged for a closer look

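Within 8 of 40 sets of values (5 genes in 8 groups) the highest or lowest mouse lay farther from its neighbour than Dixon's 95% limit allows, where chance alone gives about 1 in 20. For Fcgr1 these were the highest mice of E3/Abca1+/+ sham (replicate 4, 6.39 CPM, others 2.76 to 4.34), E3/Abca1+/- sham (replicate 5, 4.16 CPM, others 3.05 to 3.51), E3/Abca1+/- TBI (replicate 6, 15.5 CPM, others 9.31 to 11.2) and E4/Abca1+/- sham mice (replicate 2, 6.84 CPM, others 2.69 to 4.48). E4/Abca1+/- sham replicate 2 was also far above its group for Fcgr2b (6.96 CPM, others 3.84 to 4.92) and Fcgr3 (25.7 CPM, others 14.0 to 18.7). It had 508 CPM of summed microglia and macrophage markers, against 347 to 428 in the other 6 mice of its group. E3/Abca1+/- sham replicate 5, high for Fcgr1, was the lowest of its group for Fcgr3 (11.8 CPM, others 14.2 to 15.7). For Fcgr4 the highest E4/Abca1+/- TBI mouse (replicate 8, 8.44 CPM, others 2.19 to 4.41) stood apart.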

How the results depend on the processing

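The rise of all 5 genes after TBI kept its direction and its side of the threshold in each genotype under every alternative in which the gene was tested. Fcgr4 was not tested after thinning or where every mouse needed 10 counts, nor in 8 of the 16 fits that left out 1 E3/Abca1+/+ mouse, where it had too few counts. The number of genes passing for Abca1 in APOE4 sham mice went from 1 to 0 in the single fit and 0 after thinning, and for Abca1 in APOE4 TBI mice from 0 to 1 with the DESeq2 Wald test, 1 with sex as a covariate and 4 in the single fit. For APOE in Abca1+/- sham mice it went from 1 to 2 with DESeq2, 0 in the single fit and 0 after thinning. For APOE in Abca1+/- TBI mice it went from 2 to 5 with DESeq2, 5 in the single fit and 0 after thinning. Leaving out each mouse gave 0 to 3 genes for Abca1 in APOE4 TBI mice and 0 to 4 for APOE in Abca1+/- TBI mice, with 0 without E3/Abca1+/- TBI replicate 1, 2 or 3, 1 without E3/Abca1+/- TBI replicate 4 or 5 or E4/Abca1+/- TBI replicate 1, 3, 5, 7 or 8, and 4 without E4/Abca1+/- TBI replicate 4. The median correlation was 0.844 in injured and 0.388 in sham mice. The cause of these changes was not tested.

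Estimates that changed sign were all of values that did not pass. After thinning, Abca1 in APOE3 TBI mice gave 0.0104 (Fcgr1), 0.14 (Fcgr4) and -0.0312 (Fcer1g), and with sex as a covariate -0.0065 (Fcer1g). Thinning gave -0.19 (Fcgr1) and -0.20 (Fcgr2b) for APOE in Abca1+/+ sham mice, and -0.0075 (Fcgr1), -0.0396 (Fcgr2b) and 0.0092 (Fcer1g) in Abca1+/+ TBI mice. It gave interactions with injury of -0.0600 (Fcgr2b), -0.0078 (Fcgr3) and -0.0928 (Fcgr4) for Abca1 in APOE4 mice, 0.19 (Fcgr1), 0.17 (Fcgr2b) and 0.73 (Fcgr4) for isoform in Abca1+/+ mice, and -0.89 (Fcgr2b), -0.0590 (Fcgr3) and 0.0061 (Fcgr4) for isoform in Abca1+/- mice. Without E4/Abca1+/- sham replicate 2, Fcgr1 was -0.0944 for Abca1 in APOE4 sham mice and the isoform interaction of Fcgr4 in Abca1+/- mice was 0.0505. Thinning removes most counts of the deeper libraries, and low counts of Fcgr4 in sham mice limit its comparisons. No paired analysis was possible because replicate numbers only follow accession order.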
